A study of Caenorhabditis elegans with 29 samples.

Results

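The linker histone genes of Caenorhabditis elegans were followed in gonads in which P-granule genes had been silenced or mutated. They are his-24 and hil-1 to hil-7, the rows of the deposited table with those gene names, 8 of its 45627 genes. All 8 were found by name and had a read count average in every group. The table also holds a gene named hil-8, which was not among the genes chosen and passed no deposited test. Rows were taken by gene name, but the family was chosen with earlier results of these data known.

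A linker histone (histone H1) sits where DNA enters and leaves the nucleosome, outside the core of histones H2A, H2B, H3 and H4, and helps to fold chromatin into more compact forms. In C. elegans, HIS-24 (also called H1.1) is the best studied of the family and is known for a part in silencing in the germ line. P granules are RNA and protein bodies of germ cells, and PGL-1 and PGL-3 (RGG-box proteins) and GLH-1 and GLH-4 (Vasa-related helicases) are among their parts.

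RNA was sequenced from dissected gonads in 29 libraries of 10 groups, all at 24 °C. In 21 libraries (3 in each of 7 groups), worms of strain DP132 carried edIs6 (chromosome IV), a transgene of unc-119p::unc-119::gfp with rol-6, and fed on bacteria with double-stranded RNA against pgl-3, pgl-1, glh-4 and glh-1 (RNAi) or with the empty vector (control); gonads of their offspring were taken. The groups were L4 RNAi and L4 control (the last larval stage), Day 1 RNAi and Day 1 control (1 day past L4), and Day 2 RNAi GFP-positive, Day 2 RNAi GFP-negative and Day 2 control (2 days past L4), where GFP-positive gonads showed the neuronal reporter. The other 8 libraries were Day 1 gonads of pgl-1(ct131) him-3(e1147) (n = 3, with mutations in both genes), glh-1(gk100) (n = 2) and wild type (n = 3). Adult RNAi gonads came from worms without embryos and some were collected whole, while control gonads were cut at the bend. Each of the 21 RNAi and control libraries pooled many gonads (125 to 150 for RNAi, 75 to 100 for controls). No number was at hand for the 8 mutant and wild-type libraries. The labels do not say that libraries of a group came from separate cultures, so p-values measure the spread between these libraries.

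Levels are normalized reads: read counts that the authors divided by a factor for each library, in the RNAi and mutant sets apart. The table holds only group averages, from which the reads per library were solved for; libraries are called a, b and c by falling depth. Depth ran from 1027223 to 9079321 reads on genes. Libraries c of Day 1 RNAi and Day 1 control stood apart, with 19256 and 16769 genes expected at an even depth of 1027223 reads, against 13656 and 14361 in the other Day 1 RNAi libraries and 9854 and 10558 in the other Day 1 controls. In all 4 comparisons of RNAi with control gonads, each of the 4 targets fell in the authors' deposited table, and pgl-3 stood at 2.11 to 8.12 percent of its control average. In adult RNAi gonads 7 or 8 of 8 germ line markers were lower, while markers of sperm, muscle, intestine, neurons and the somatic gonad included genes that were higher, as given at the end. Of all genes 10.4 percent were lower at Day 1, 21.5 percent in Day 2 GFP-negative and 23.5 percent in Day 2 GFP-positive gonads. The shares that were higher were 19.4, 38.2 and 44.3 percent. The 8 germ line markers summed to 5630 to 7620 normalized reads in Day 2 RNAi GFP-positive libraries and 12096 to 14325 in GFP-negative libraries, against 32151 to 33672 in Day 2 controls. In whole gonads, fewer cells of a type and less RNA per cell cannot be told apart.

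Linker histone transcripts moved in both directions, and more of them passed the test at later stages. A gene was called at a Benjamini-Hochberg (BH) adjusted p under 0.05 in the authors' deposited table. At L4, 0 members rose and 1 fell of 5 given an adjusted p (of all genes 0.201 percent were called, 0.119 percent higher and 0.0824 percent lower). At Day 1, 1 rose and 2 fell of 6 (29.8 percent of all genes called, 19.4 percent higher and 10.4 percent lower). In Day 2 RNAi GFP-negative gonads 4 rose and 2 fell of 8 (59.7 percent of all genes called, 38.2 percent higher and 21.5 percent lower), and in GFP-positive gonads 5 rose and 2 fell of 8 (67.8 percent of all genes called, 44.3 percent higher and 23.5 percent lower). Between GFP-positive and GFP-negative gonads 4 were higher and 1 lower of 8 (38 percent of all genes called, 19.4 percent higher and 18.6 percent lower). With 5 to 8 members tested, no count is read as particular to the family. A limma voom fit of the reads per library called 0 of 8 members at L4, with 2 at an unadjusted p under 0.05 (0.0298 percent of all genes called). It called 3 of 8 at Day 1 (16.5 percent of all genes), 7 of 8 in GFP-negative gonads (46.1 percent of all genes), 8 of 8 in GFP-positive gonads (62.3 percent of all genes) and 5 of 8 between these (20.9 percent of all genes). The median log2 fold change of all 8 members, with or without an adjusted p, was −0.17 at L4 in the authors' deposited table. That of all tested genes was 0.01. The members' median is given for each comparison in turn. It was 0.53 at Day 1 (all genes 0.26), 1.19 in Day 2 GFP-negative gonads (all genes 1.30) and 1.84 in Day 2 GFP-positive gonads (all genes 2.08). At L4 and Day 1 only 5 and 6 of the 8 members had an adjusted p. The 2 medians there cover unlike sets, so no order between them is read. The comparisons share control libraries at Day 2.

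**Figure D1:**
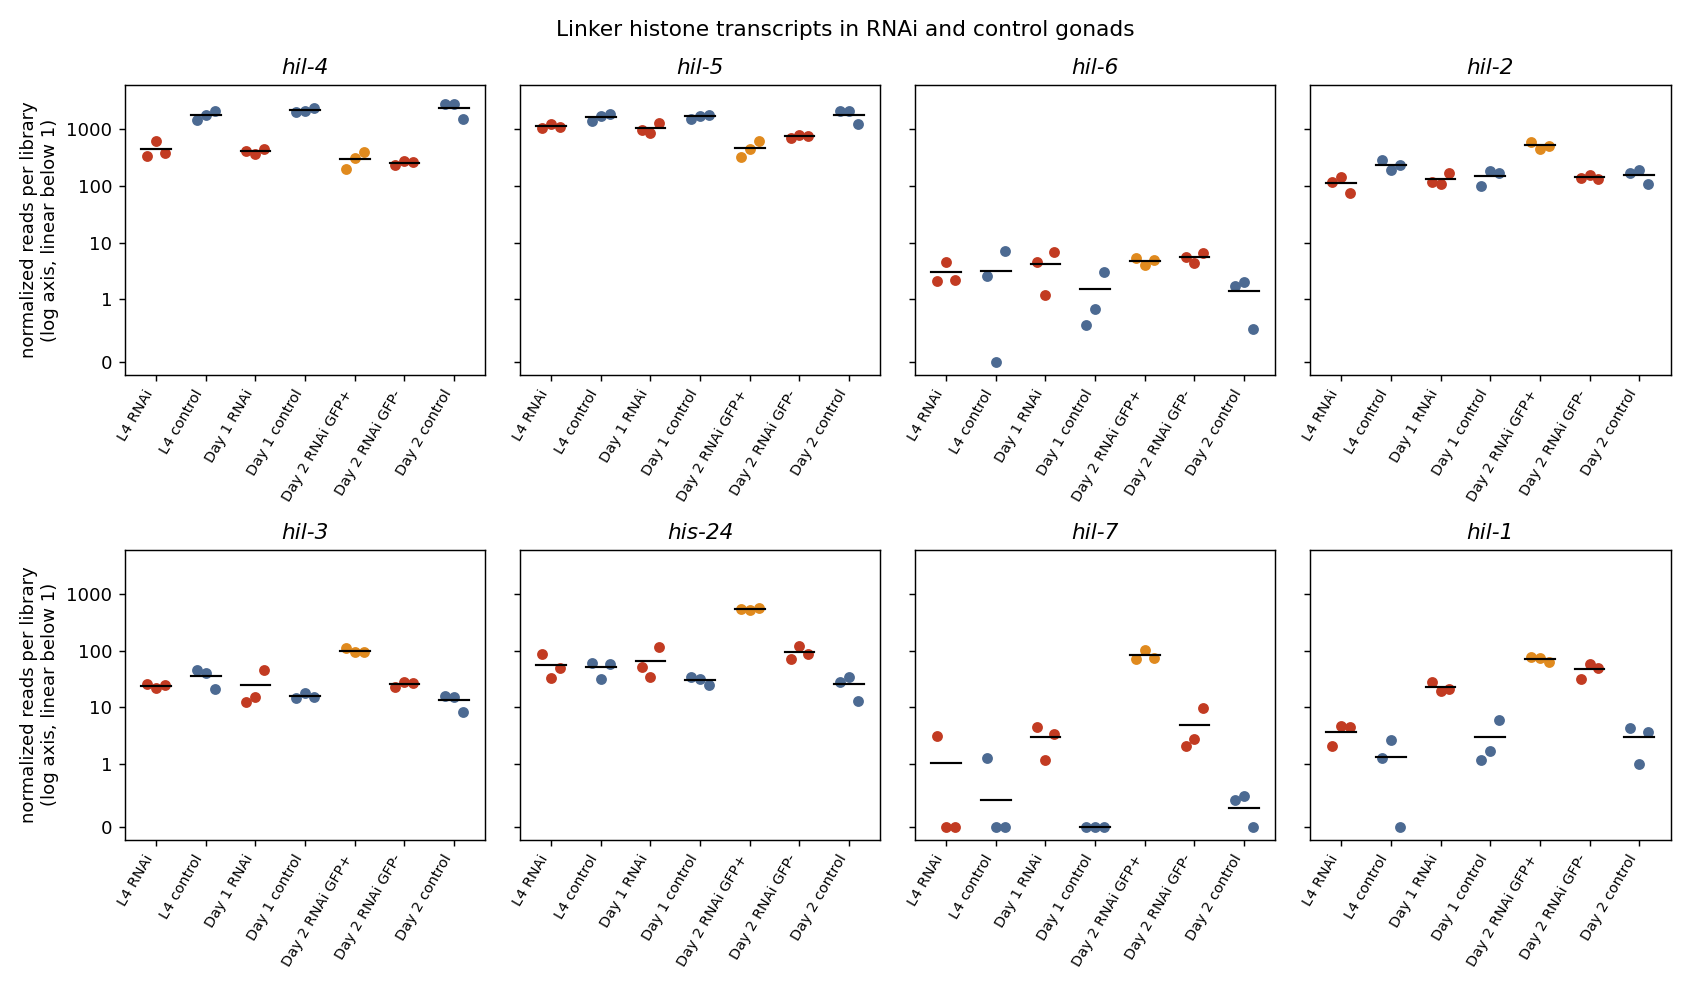
Normalized reads of each linker histone gene (log axis, linear below 1) in each library of the RNAi set; points are libraries in the order a, b, c and bars are group means (n = 3). hil-4 in all RNAi libraries lies below all controls of its stage, and his-24, hil-1, hil-2, hil-3 and hil-7 are highest in Day 2 RNAi GFP-positive gonads.

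The most abundant pair were hil-4 and hil-5, which the authors place in their germline-enriched category. The gene hil-4 (WBGene00001855) lies on chromosome V at 4754313 to 4755453, plus strand, in the WBcel235 annotation, used for position only, as no source used here gives the authors' build. The RNAi target pgl-3 follows on the same strand at 4755979 to 4758587, 525 bases further on, and the 2 genes do not overlap.

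At L4, hil-4 stood at 337, 608 and 380.4 normalized reads in the L4 RNAi libraries, against 1448, 1788 and 2118 in controls. All RNAi libraries lay below all controls, and the highest of them, library b, was also the one with the most pgl-3, at 157 against 49.5 and 57.8 in RNAi libraries a and c. The other targets, pgl-1, glh-1 and glh-4, were also highest in library b, at 161, 435 and 187. The fall of hil-4 at L4 had a log2 fold change of −1.50 (BH-adjusted p = 0.00022) by the authors' deposited table. limma voom gave a log2 fold change of −1.94 ± 0.48 (SE) with an adjusted p of 0.474, so this call rests on the deposited test.

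At Day 1, hil-4 stood at 406, 365 and 453 normalized reads in RNAi libraries, against 1981, 2089.6 and 2346 in controls. The groups did not overlap, and the log2 fold change was −2.45 (BH-adjusted p = 3.04e-73) by the authors' deposited table. Unlike at L4, the Day 1 RNAi library with the most hil-4, library c, had the least pgl-3. It had 37.7 normalized reads of pgl-3, against 75.4 and 51.0 in libraries a and b. At Day 2, GFP-positive libraries had 195, 313 and 397 normalized reads and GFP-negative libraries 235, 272 and 261, against 2769.9, 2793 and 1506 in controls. Both RNAi groups lay far below the lowest control. The log2 fold changes were −3.41 for GFP-positive (BH-adjusted p = 2.52e-32) and −3.38 for GFP-negative gonads (BH-adjusted p = 2.51e-50) by the authors' deposited table. Between GFP-positive and GFP-negative gonads hil-4 had a log2 fold change of −0.01 (BH-adjusted p = 0.983) by the authors' deposited table, with overlapping libraries.

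The gene hil-5 (chromosome I) has no target beside it. At L4 it stood at 1037, 1234 and 1104 normalized reads in RNAi libraries, against 1369.96, 1686 and 1872 in controls. The libraries did not overlap, but the log2 fold change of −0.44 did not pass (BH-adjusted p = 1.00) by the authors' deposited table. At Day 1 it stood at 972, 839.6 and 1273 normalized reads in RNAi libraries, against 1529, 1717 and 1781 in controls. That fall had a log2 fold change of −0.78 (BH-adjusted p = 4.02e-06) by the authors' deposited table, while limma voom gave −0.76 with an adjusted p of 0.0532.

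At Day 2, hil-5 stood at 326, 440.4 and 607 normalized reads in GFP-positive and 709.6, 773 and 754 in GFP-negative libraries, against 2089.7, 2066 and 1212 in controls. The 3 groups were fully apart. Log2 fold changes were −2.42 (BH-adjusted p = 2.06e-19) for GFP-positive and −1.45 (BH-adjusted p = 8.11e-12) for GFP-negative gonads by the authors' deposited table. Unlike hil-4, hil-5 was lower in GFP-positive than in GFP-negative gonads, with a log2 fold change of −0.93 (BH-adjusted p = 5.98e-06) by the authors' deposited table. In limma voom the value was −0.81 (adjusted p = 0.0403). It did not pass without GFP-positive library a (−0.54, adjusted p = 0.284) or b (−0.84, adjusted p = 0.0835), without GFP-negative library a, b or c (adjusted p = 0.0799, 0.0957 and 0.0815), or with no filter on low reads (adjusted p = 0.136).

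The balance of hil-4 to hil-5 within a library was lower in the RNAi libraries of each stage. The ratio of hil-4 to hil-5 normalized reads was 0.387 ± 0.092 in L4 RNAi gonads, against 1.08 ± 0.042 in L4 controls (SD, n = 3 each). It was 0.403 ± 0.042 in Day 1 RNAi gonads, against 1.28 ± 0.052 in Day 1 controls (SD, n = 3 each). At Day 2 it was 0.654 ± 0.056 in GFP-positive and 0.343 ± 0.010 in GFP-negative gonads, against 1.31 ± 0.057 in controls (SD, n = 3 each). No RNAi library overlapped its controls in this ratio.

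Of the 8 coding genes next to the 4 targets, some fell and others rose. The gene him-3, whose product is part of the axis of meiotic chromosomes, lies 189 bases from pgl-1 on the opposite strand, and T12F5.2 lies 172 bases from glh-4 on the same strand. In the authors' deposited table their log2 fold changes at L4 were −2.17 (BH-adjusted p = 2.03e-08) and −1.75 (BH-adjusted p = 4.76e-05). The gene H27M09.1 (sacy-1, for a DEAD-box helicase), 337 bases from glh-1 on the same strand, had −0.03 at L4 (BH-adjusted p = 1.00) by the authors' deposited table. It fell in the adult comparisons, with −0.49 at Day 1 (BH-adjusted p = 0.0453), −0.57 in Day 2 GFP-negative (BH-adjusted p = 0.000297) and −0.89 in Day 2 GFP-positive gonads (BH-adjusted p = 3.74e-08) by the authors' deposited table. Neighbours further off included genes that rose. C18G1.3, 2386 bases beyond pgl-3, had 2.29 at Day 1 (BH-adjusted p = 0.0214), and T21G5.6, 4776 bases from glh-1, had 1.96 at Day 1 (BH-adjusted p = 0.0460), by the authors' deposited table. Both were low, with 15 and 24 reads over the Day 1 RNAi libraries, against 0 and 5 over the Day 1 controls. Against Day 2 controls C18G1.3 was called in neither RNAi group, and T21G5.6 was called higher in both. The gene lin-59, 5869 bases from glh-4, had 1.05 in Day 2 GFP-negative and 1.76 in Day 2 GFP-positive gonads (BH-adjusted p = 5.09e-10 and 6.37e-32) by the authors' deposited table. The remaining neighbour, nhr-249, 1913 bases from pgl-1, did not exceed a group average of 1.78 in the RNAi set and was called lower in both Day 2 comparisons with control by the authors' deposited table. Levels of hil-4 averaged 24.8 percent of control at L4, 19.1 percent at Day 1, 10.85 percent in Day 2 GFP-negative and 12.8 percent in Day 2 GFP-positive gonads. The same values for him-3 were 10.2, 9.55, 7.37 and 2.07 percent. A role of position in these falls was not tested.

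**Figure D2:**
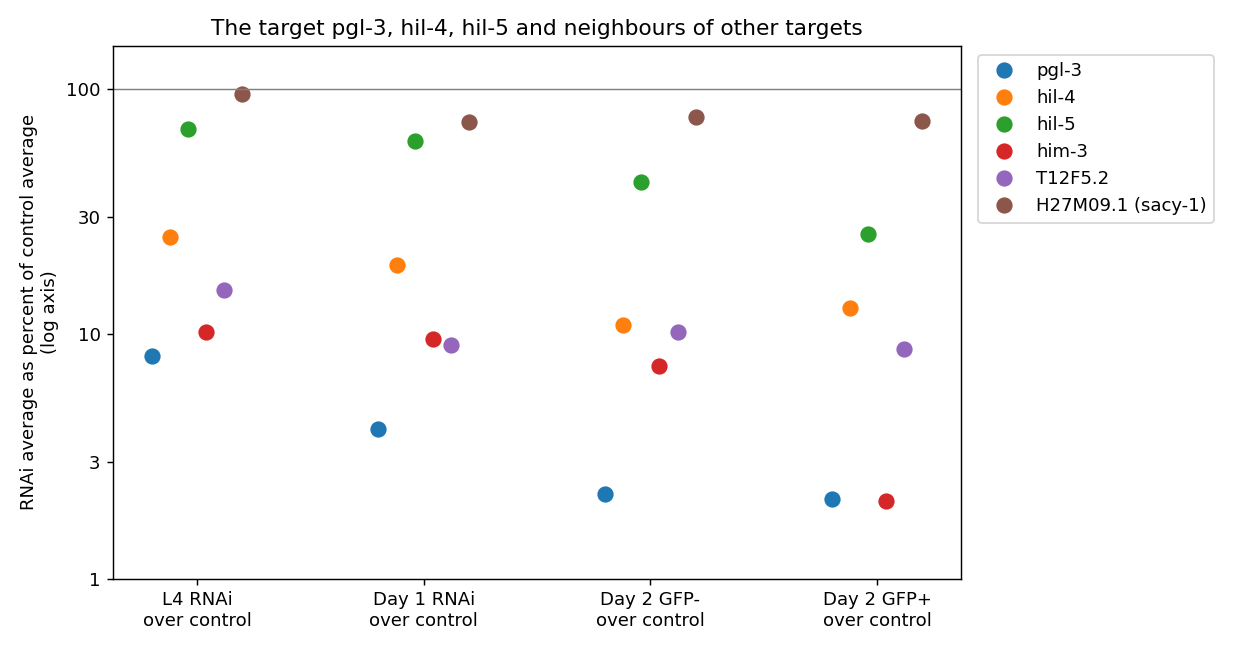
Group average in RNAi gonads as a percent of the control average (log axis) for the target pgl-3, for hil-4 beside it, for hil-5, and for him-3, T12F5.2 and H27M09.1, which lie beside pgl-1, glh-4 and glh-1. At L4, hil-4 is at 24.8 percent and hil-5 at 68.5 percent, while H27M09.1 is at 95.04 percent.

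The third germline-enriched member, hil-6 (chromosome V), was barely detected, at 0 to 7.97 normalized reads in all 29 libraries. It passed no deposited test. In Day 2 RNAi GFP-negative libraries it had 5.66, 4.41 and 6.59 normalized reads, against 1.70, 1.99 and 0.523 in controls. The groups did not overlap, and the log2 fold change was 1.62 (BH-adjusted p = 0.0517) by the authors' deposited table, while limma voom called it (1.92 ± 0.69 SE, adjusted p = 0.0286).

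The ubiquitous members by the authors' categories were hil-2 (chromosome IV) and hil-3 (chromosome X), and both stood out in GFP-positive gonads. At Day 2, hil-2 stood at 587, 446 and 507 normalized reads in GFP-positive and 138, 156 and 133 in GFP-negative libraries, against 167, 189.7 and 108 in controls. GFP-positive libraries lay above all others, whereas GFP-negative libraries overlapped the controls. The log2 fold change was 1.25 (BH-adjusted p = 2.48e-08) in GFP-positive and −0.31 (BH-adjusted p = 0.201) in GFP-negative gonads by the authors' deposited table. Between them it was 1.57 (BH-adjusted p = 3.22e-23) by the authors' deposited table.

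At the earlier stages hil-2 passed no test. At L4 it stood at 117, 143 and 73.4 normalized reads in RNAi libraries, against 283, 192 and 236 in controls. These did not overlap, yet the log2 fold change of −0.81 did not pass (BH-adjusted p = 0.689) by the authors' deposited table. At Day 1 it stood at 116, 106 and 168 normalized reads in RNAi libraries, against 98.4, 185 and 169.9 in controls, with overlap. The annotation also places a microRNA gene within hil-2 on the same strand, whose reads cannot be told apart from those of hil-2.

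The rarer hil-3 stood at 109, 94.2 and 94.3 normalized reads in GFP-positive and 23.2, 28.1 and 27.1 in GFP-negative libraries, against 15.7, 15.4 and 8.37 in Day 2 controls. Its 3 groups were apart, in that order. Log2 fold changes were 2.42 (BH-adjusted p = 1.80e-17) in GFP-positive and 0.77 (BH-adjusted p = 0.0496) in GFP-negative gonads by the authors' deposited table. The smaller of these did not pass in limma voom without Day 2 control library c (0.73, adjusted p = 0.0922) or without GFP-negative library b (0.94, adjusted p = 0.058). At L4 it stood at 25.3, 21.9 and 24.5 normalized reads in RNAi libraries, against 45.5, 40.1 and 20.8 in controls, with overlap. At Day 1 it stood at 12.6, 15.4 and 44.6 normalized reads in RNAi libraries, against 14.6, 17.6 and 15.2 in controls, where only library c, the one that stood apart, exceeded them. With both libraries c left out the log2 fold change was −0.18 in limma voom, against 0.35 by the authors' deposited table, and neither passed (adjusted p = 0.781 and 0.697).

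The soma-specific members by the authors' categories, his-24 and hil-7, gave the sharpest contrast between GFP-positive gonads and all other groups. At Day 2, his-24 (chromosome X) stood at 539.9, 523 and 573 normalized reads in GFP-positive and 71.5, 119.5 and 86.3 in GFP-negative libraries, against 28.005, 34.8 and 13.08 in controls. No group overlapped another. Log2 fold changes were 3.94 (BH-adjusted p = 7.90e-53) for GFP-positive and 1.64 (BH-adjusted p = 1.71e-06) for GFP-negative gonads by the authors' deposited table. Between them it was 2.27 (BH-adjusted p = 1.37e-37) by the authors' deposited table.

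Before Day 2, his-24 passed no test. At Day 1 it stood at 51.2, 34.4 and 113 normalized reads in RNAi libraries, against 34.6, 31.1 and 24.3 in controls, and again library c was highest. The log2 fold change of 0.87 did not pass (BH-adjusted p = 0.159) by the authors' deposited table. At L4 it stood at 87.3, 33.4 and 48.9 normalized reads in RNAi libraries, against 60.7, 32.1 and 59.0 in controls. The annotation places 2 noncoding genes, M163.19 and M163.16, opposite his-24; the libraries do not mark strand, so reads of such genes cannot be told apart, and their own rows reached a group average of at most 1.14 and 0.19 normalized reads.

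The gene hil-7 (chromosome IV) was at most at 9.51 normalized reads outside GFP-positive gonads. It had 70.7, 103 and 74.2 normalized reads in GFP-positive and 2.06, 2.75 and 9.51 in GFP-negative libraries, against 0.424, 0.498 and 0 in Day 2 controls, where 2 reads were found in all. The log2 fold change was 7.05 (BH-adjusted p = 8.14e-16) for GFP-positive and 3.00 (BH-adjusted p = 0.0077) for GFP-negative gonads by the authors' deposited table. Between them it was 3.58 (BH-adjusted p = 1.17e-20) by the authors' deposited table. At Day 1, RNAi libraries had 4.49, 1.19 and 3.43 normalized reads, while all 3 controls had 0 reads; against 3 reads over the control group the RNAi average was at least 3.26-fold higher. The authors' deposited table gives no adjusted p there, and limma voom gave an adjusted p of 0.0447, with a range of 0.00761 to 0.227 when single libraries were left out.

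The gene hil-1 (chromosome V), in none of the authors' categories, was the 1 member that rose at Day 1 by the deposited test. At Day 1 it stood at 27.8, 18.97 and 20.6 normalized reads in RNAi libraries, against 1.17, 1.68 and 6.07 in controls. These rest on 53 reads over the RNAi libraries and only 6 over the controls. The log2 fold change was 2.36 (BH-adjusted p = 0.0051) by the authors' deposited table. At Day 2 it stood at 75.5, 74.2 and 63.1 normalized reads in GFP-positive and 31.9, 58.9 and 49.0 in GFP-negative libraries, against 4.24, 0.996 and 3.66 in controls. Log2 fold changes were 4.04 (BH-adjusted p = 1.27e-21) and 3.65 (BH-adjusted p = 1.35e-14) for GFP-positive and GFP-negative gonads by the authors' deposited table. All GFP-positive libraries lay above all GFP-negative ones, but the log2 fold change between them of 0.35 did not pass (BH-adjusted p = 0.275) by the authors' deposited table. At L4 it had 2.104, 4.61 and 4.45 normalized reads in RNAi libraries, against 1.26, 2.67 and 0 in controls, with no adjusted p.

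**Figure D3:**
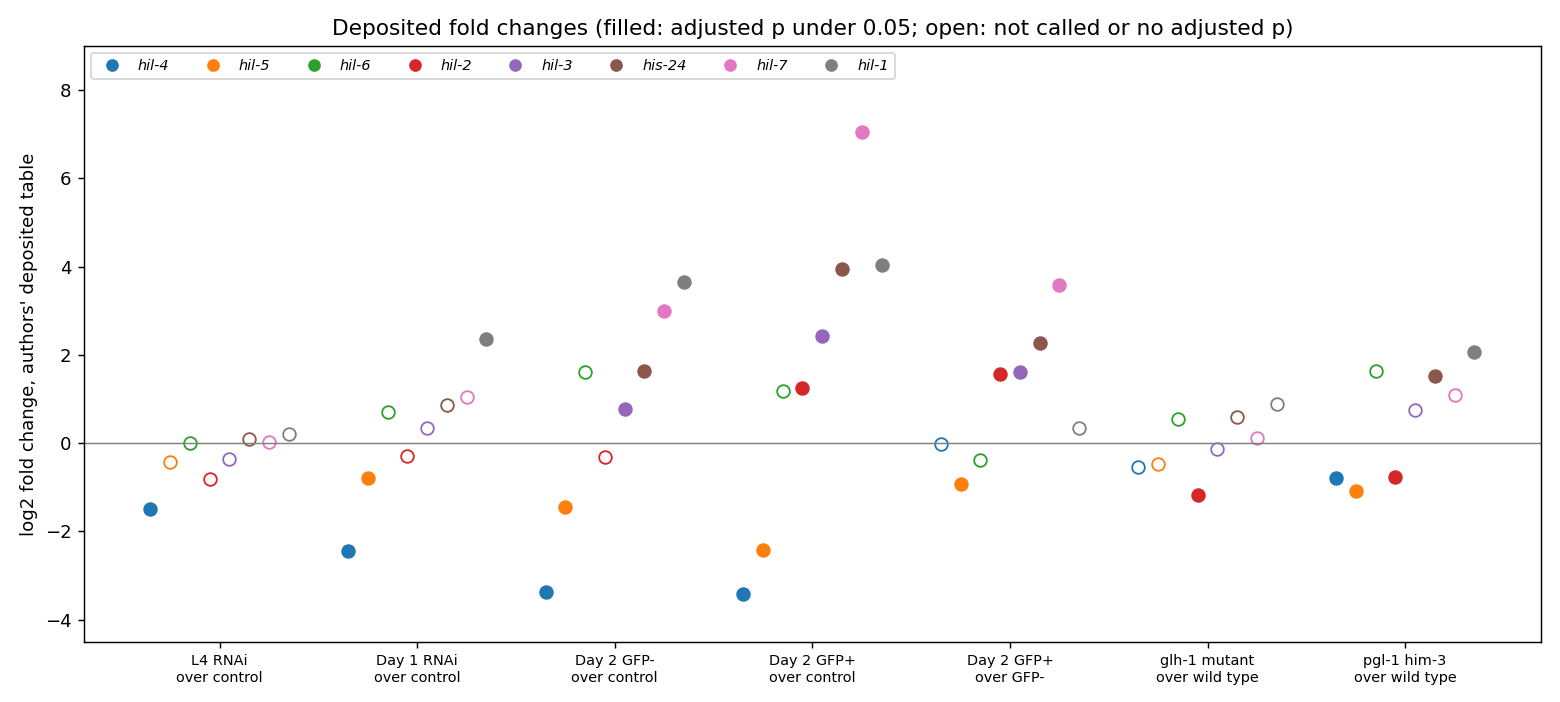
Log2 fold changes of the 8 linker histone genes in the 7 comparisons of the authors' deposited table; filled points have a BH-adjusted p under 0.05 and open points do not or have none. Values run from −3.41 (hil-4) to 7.05 (hil-7), both in Day 2 RNAi GFP-positive against control gonads.

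Summed over the 8 genes, the level per kilobase of exon was 2005 ± 273 in L4 RNAi gonads, against 4179 ± 595 in L4 controls (SD, n = 3 each). At Day 1 it was 1919.8 ± 414 in RNAi gonads, against 4428 ± 384 in controls (SD, n = 3 each). At Day 2 it was 2457 ± 234 in GFP-positive and 1513 ± 111 in GFP-negative gonads, against 4784 ± 1418 in controls (SD, n = 3 each). All RNAi libraries lay below their controls.

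The make-up changed as well. On the scale per kilobase, hil-4 and hil-5 together made up 33.9 ± 7.88 percent of the sum in GFP-positive and 74.6 ± 1.83 percent in GFP-negative gonads, against 94.7 ± 0.32 percent in Day 2 controls (SD, n = 3 each). In GFP-positive gonads hil-2 took 27.9 ± 5.35 percent and his-24 took 24.1 ± 1.42 percent, against 4.32 ± 0.33 and 0.555 ± 0.111 percent in Day 2 controls (SD, n = 3 each). By level per kilobase the order of the means in GFP-positive gonads was hil-2, his-24, hil-5, hil-4, hil-7, hil-3, hil-1 and hil-6, and the ranges in share of hil-2, his-24 and hil-5 overlapped one another, as did those of hil-3 and hil-7. In controls of all stages hil-4 and hil-5 led, with hil-2 the third.

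**Figure D4:**
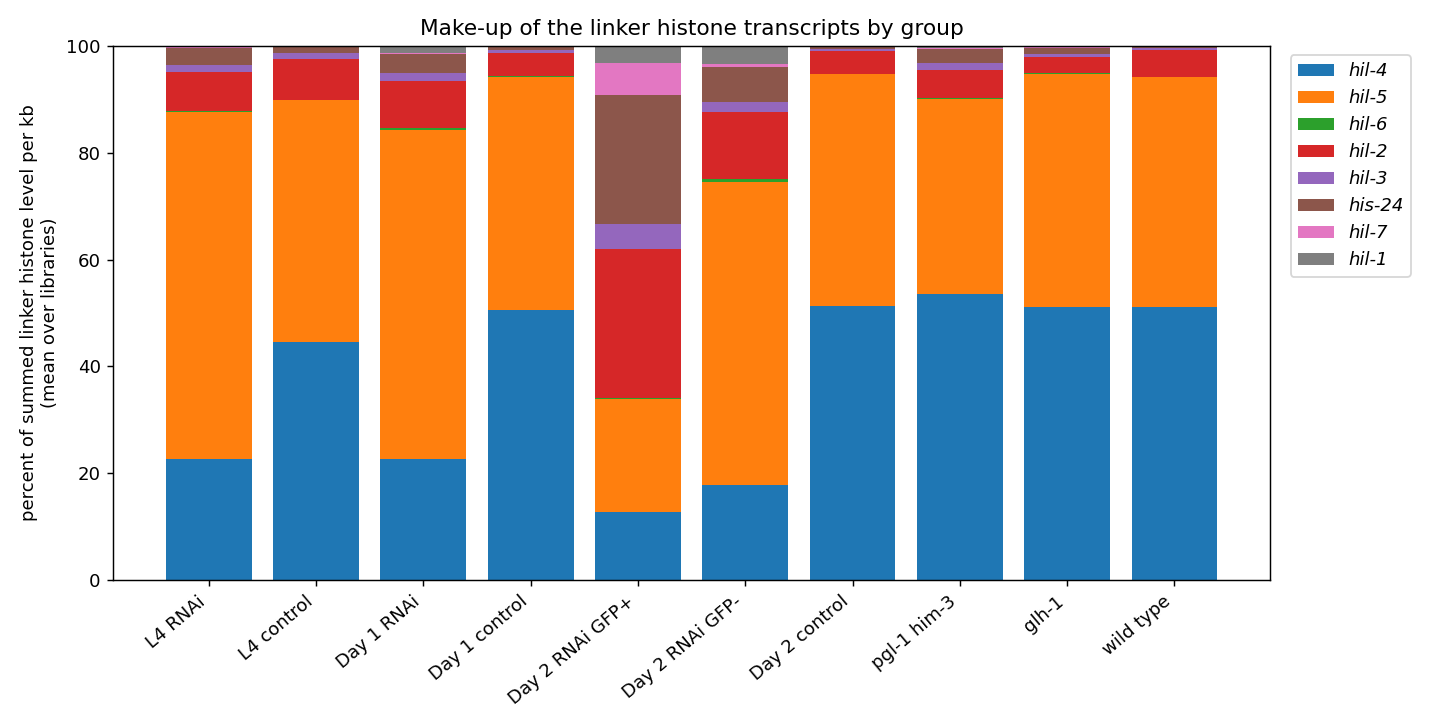
Mean share of each linker histone gene in the summed level per kilobase of exon, in percent, for the 10 groups (bars stack to 100 percent; n = 3, or 2 for glh-1). The pair hil-4 and hil-5 holds 33.9 percent in Day 2 RNAi GFP-positive gonads and 94.7 percent in Day 2 controls.

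Between stages no member passed the threshold of limma voom with all libraries. From L4 to Day 1 in controls, 0 of 8 members were called and 2 had an unadjusted p under 0.05 (20.9 percent of all genes were called). Those were hil-2, at 151 ± 46.2 in Day 1 and 237 ± 45.4 normalized reads in L4 controls, and hil-3, at 15.8 ± 1.60 in Day 1 and 35.5 ± 12.96 in L4 controls (SD, n = 3 each). Their log2 fold changes were −0.87 ± 0.32 and −1.22 ± 0.43 (SE, limma adjusted p = 0.0557 and 0.0515). With libraries c of Day 1 RNAi and Day 1 control left out, 3 members were called, hil-2 (−0.92, adjusted p = 0.0314), hil-3 (−1.21, adjusted p = 0.0246) and hil-7 (−2.21, adjusted p = 0.0299). From Day 1 to Day 2 in controls 0 of 8 were called, and 0 had an unadjusted p under 0.05 (0.00853 percent of all genes called by limma voom).

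In RNAi gonads limma voom called 0 of 8 members from L4 to Day 1 (1 at an unadjusted p under 0.05, 0.345 percent of all genes called). From Day 1 to Day 2 GFP-negative it called 0 of 8 (2 at an unadjusted p under 0.05, 0.128 percent of all genes called). The RNAi effect at Day 1 minus that at L4 was called in 0 of 8 members by limma voom (2 at an unadjusted p under 0.05, 4.6 percent of all genes called). Those 2 were hil-7, at 2.89 ± 1.22, and hil-1, at 2.32 ± 1.03 (SE, limma adjusted p = 0.211 and 0.235). For hil-4 this difference was −0.43 ± 0.65 (SE, limma adjusted p = 0.725). The effect in Day 2 GFP-negative gonads minus that at Day 1 was called in 0 of 8 by limma voom (1 at an unadjusted p under 0.05, 0.00426 percent of all genes called). That 1 was his-24, at 1.26 ± 0.59 (SE, limma adjusted p = 0.716). No member thus passed at either step, which does not show that the RNAi effects were alike. The effect in Day 2 GFP-positive gonads was not tested against that of an earlier stage.

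In the mutants the same genes were measured in gonads without RNAi. In pgl-1(ct131) him-3(e1147) gonads 2 members rose and 3 fell of 8 (31.1 percent of all genes called, 22.3 percent higher and 8.84 percent lower), and in glh-1(gk100) gonads 0 rose and 1 fell of 6 (9.15 percent of all genes called, 6.68 percent higher and 2.47 percent lower), in the authors' deposited table. limma voom called 3 of 8 (32.5 percent of all genes) and 1 of 8 (6.89 percent of all genes) in these comparisons. The gene hil-4 stood at 804, 984 and 1175 normalized reads in pgl-1(ct131) him-3(e1147) and 846 and 1456 in glh-1(gk100) libraries, against 1304, 2445 and 1448 in wild type. Its log2 fold changes were −0.80 (BH-adjusted p = 0.0147) for pgl-1(ct131) him-3(e1147) and −0.55 (BH-adjusted p = 0.30) for glh-1(gk100) by the authors' deposited table. In limma voom the first was lost without wild-type library b (−0.52, adjusted p = 0.0736) or pgl-1(ct131) him-3(e1147) library a (−0.64, adjusted p = 0.0887). The neighbour pgl-3 also fell in pgl-1(ct131) him-3(e1147), with −1.19 (BH-adjusted p = 1.45e-05) by the authors' deposited table. So did glh-1 and glh-4, with −0.91 and −0.74 (BH-adjusted p = 0.0194 and 0.0119). In glh-1(gk100) the pgl-3 value of −0.63 did not pass (BH-adjusted p = 0.119).

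The gene hil-5 stood at 513, 645 and 672 normalized reads in pgl-1(ct131) him-3(e1147) and 614 and 1208 in glh-1(gk100) libraries, against 956, 1627 and 1323 in wild type. The log2 fold change for pgl-1(ct131) him-3(e1147) was −1.08 (BH-adjusted p = 7.0e-05), and that for glh-1(gk100) of −0.48 did not pass (BH-adjusted p = 0.383), by the authors' deposited table. Here the ratio of hil-4 to hil-5 was 1.61 ± 0.12 in pgl-1(ct131) him-3(e1147) (SD, n = 3) and 1.29 ± 0.12 in glh-1(gk100) (SD, n = 2), against 1.32 ± 0.21 in wild type (SD, n = 3).

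The gene hil-2 fell in both mutants, and its libraries did not overlap wild type in either. It stood at 101, 71.7 and 48.1 normalized reads in pgl-1(ct131) him-3(e1147) and 40.4 and 69.1 in glh-1(gk100) libraries, against 115, 152 and 121 in wild type. The log2 fold changes were −0.77 (BH-adjusted p = 0.0425) and −1.18 (BH-adjusted p = 0.0124) for pgl-1(ct131) him-3(e1147) and glh-1(gk100) by the authors' deposited table, which share the wild-type libraries. In limma voom the first was not called (adjusted p = 0.0677). The second was called (−1.41, adjusted p = 0.035). Without wild-type library a, b or c its value was −1.54, −1.29 and −1.43, and it did not pass (adjusted p = 0.0845, 0.0933 and 0.0506). Without glh-1(gk100) library a it was −0.88 (adjusted p = 0.398), a fit in which the lone glh-1(gk100) library is assumed to vary like the other groups. Scaled to total reads it was −1.19 (adjusted p = 0.0566).

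Rises in pgl-1(ct131) him-3(e1147) were those of his-24 and hil-1. The gene his-24 stood at 51.4, 75.2 and 11.3 normalized reads there and 22.3 and 27.3 in glh-1(gk100) libraries, against 10.04, 26.3 and 4.48 in wild type, with overlap. Its log2 fold change in pgl-1(ct131) him-3(e1147) was 1.52 (BH-adjusted p = 0.0443) by the authors' deposited table, and limma voom did not call it (1.75, adjusted p = 0.0613). The gene hil-1 stood at 8.49, 6.20 and 7.07 normalized reads in pgl-1(ct131) him-3(e1147) and 6.64 and 3.64 in glh-1(gk100) libraries, against 0.628, 0.974 and 2.24 in wild type. In whole reads hil-1 had 29 over the pgl-1(ct131) him-3(e1147) libraries and only 3 over wild type. Its log2 fold change in pgl-1(ct131) him-3(e1147) was 2.07 (BH-adjusted p = 0.0396) by the authors' deposited table, and it passed in limma voom (2.31, adjusted p = 0.0169) but not without wild-type library a (1.88, adjusted p = 0.113), wild-type library b (2.36, adjusted p = 0.0571) or pgl-1(ct131) him-3(e1147) library a (2.15, adjusted p = 0.0643). The remaining members, hil-3, hil-6 and hil-7, passed in neither mutant, with log2 fold changes in pgl-1(ct131) him-3(e1147) of 0.76, 1.62 and 1.08 (BH-adjusted p = 0.252, 0.167 and 0.385) by the authors' deposited table. The 8 germ line markers summed to 11234 to 15317 normalized reads in pgl-1(ct131) him-3(e1147) and 15393 to 16339 in glh-1(gk100) libraries, against 23460 to 26512 in wild type. Other markers were higher by the authors' deposited table. In pgl-1(ct131) him-3(e1147) these were 6 of 6 intestine, 5 of 6 sperm, 4 of 5 muscle, 4 of 5 somatic gonad and 3 of 6 neuronal markers (22.3 percent of all genes). In glh-1(gk100) they were 2 of 6 intestine, 1 of 4 tested sperm, 3 of 5 muscle, 0 of 5 somatic gonad and 1 of 5 tested neuronal markers (6.68 percent of all genes). The part of cell make-up in these results was not tested. Between pgl-1(ct131) him-3(e1147) and glh-1(gk100) limma voom called 0 of 8 members (1 at an unadjusted p under 0.05, 0.309 percent of all genes called).

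**Figure D5:**
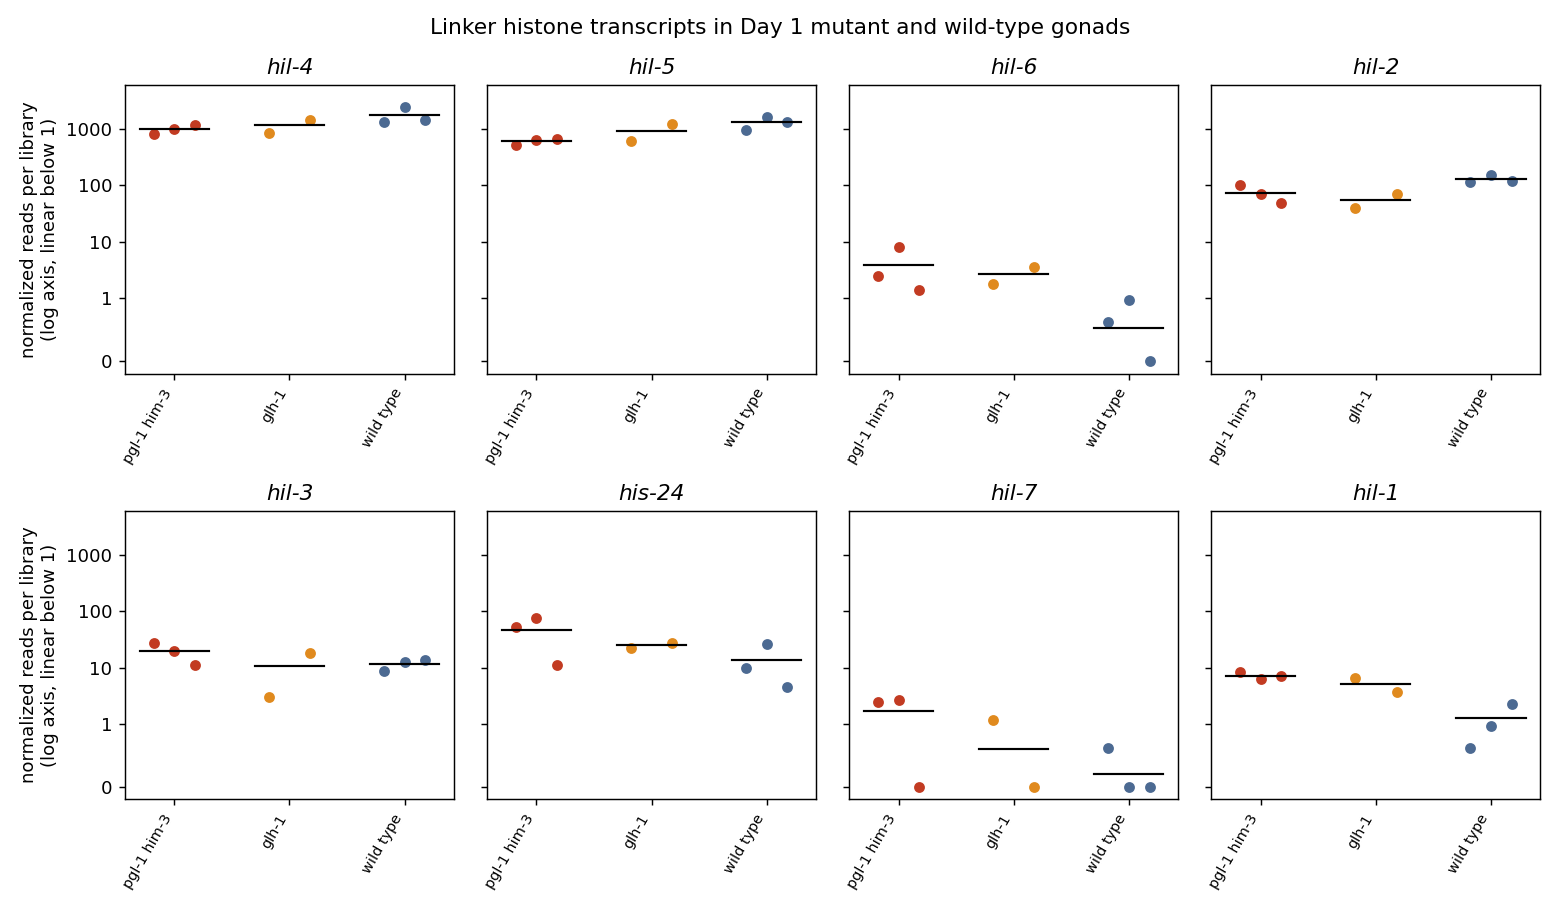
Normalized reads of each linker histone gene (log axis, linear below 1) in Day 1 gonads of pgl-1(ct131) him-3(e1147), glh-1(gk100) and wild type; points are libraries and bars are group means. hil-2 lies below wild type in all mutant libraries, at 40.4 to 101 against 115 to 152.

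The genes closest in pattern were sought over the 7 group averages of the RNAi set, among 6804 genes with an average of at least 100 in some group, by Pearson's r of log2(average + 1); r describes 7 averages that share libraries and has no test. For hil-4 they were glh-2 (a glh-1 relative, r = 0.997), the target pgl-3 (r = 0.996) and Y39B6A.43 (r = 0.990). For hil-5 they were moc-3, iff-1 and lsl-1 (r = 0.996, 0.995 and 0.995). For his-24 they were dep-1, aqp-2 and sma-1 (r = 0.999, 0.998 and 0.997). For hil-2 likeness was lower, with epg-2, C14F11.1 and F46F11.12 at r = 0.949, 0.948 and 0.945.

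Other chromatin genes gave a background for these values in the authors' deposited table. There were 64 core histone genes, whose near-identical copies can share reads. Against Day 2 controls, 30 of them rose and 15 fell in GFP-positive gonads, and 29 rose and 4 fell in GFP-negative gonads. Of all genes, 44.3 percent were higher and 23.5 percent lower in GFP-positive gonads. In GFP-negative gonads 38.2 percent were higher and 21.5 percent lower. No count in these lists is read as particular to a list. The largest rise in GFP-positive gonads was that of his-32, with a log2 fold change of 4.11 (BH-adjusted p = 2.29e-85) by the authors' deposited table. Of 9 tested histone variants 4 rose and 5 fell in GFP-positive gonads, with his-70 and his-71 (H3.3-type genes) at 5.96 and 4.74 and cpar-1 (a relative of the centromeric H3) at −2.57 by the authors' deposited table. Of 13 histone chaperone genes listed, 8 were found by name, and of these 0 rose and 8 fell there, with nasp-2 at −2.38. Of 13 chromatin regulators 1 rose and 10 fell, with hpl-1 (an HP1 protein) at 1.62 and mes-6 (of the PRC2 complex) at −2.09, in the authors' deposited table. Of 6 sperm chromatin genes listed, 3 were found, and 3 rose there. Of 8 HMG box genes listed, 7 were found, and 1 rose and 4 fell there.

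Markers of cell types also differed between RNAi and control gonads. The 6 neuronal markers summed to 3422 to 4177 normalized reads in GFP-positive and 1124 to 1514 in GFP-negative libraries, against 408 to 477 in Day 2 controls, and 6 of 6 were higher in GFP-positive than in GFP-negative gonads by the authors' deposited table. Of all genes 19.4 percent were higher between these groups. At Day 1, 3 of 6 neuronal markers were higher than in controls by the authors' deposited table (19.4 percent of all genes). In the same comparison 5 of 6 intestine, 4 of 5 somatic gonad, 4 of 5 tested sperm and 3 of 5 muscle markers were higher. Of 4 tested hypodermis markers 0 were higher. The 6 sperm markers summed to 236 to 743 normalized reads in GFP-positive and 584 to 715 in GFP-negative libraries, against 2.99 to 5.23 in Day 2 controls, and 6 of 6 were higher in each of these RNAi groups by the authors' deposited table. Of all genes 44.3 percent were higher in GFP-positive and 38.2 percent in GFP-negative gonads. The 6 intestine markers summed to 141872 to 189691 normalized reads in GFP-positive and 101207 to 132100 in GFP-negative libraries, against 19059 to 31606 in Day 2 controls. The 5 somatic gonad markers summed to 1502 to 1586 normalized reads in GFP-positive and 1246 to 1685 in GFP-negative libraries, against 139.38 to 163.23 in Day 2 controls. Of the 5 hypodermis markers, 3 were higher and 2 lower in GFP-positive gonads than in Day 2 controls by the authors' deposited table (44.3 and 23.5 percent of all genes). The 5 muscle markers summed to 5102 to 7056 normalized reads in GFP-positive and 3627 to 4279.8 in GFP-negative libraries, against 354 to 404 in Day 2 controls. None of these neuronal, sperm, intestine, somatic gonad or muscle markers was at 0 in the Day 2 groups. Between GFP-positive and GFP-negative gonads 0 of 6 intestine markers were higher and 0 lower by the authors' deposited table (19.4 and 18.6 percent of all genes). Of 6 sperm markers 0 were higher and 1 lower, and of 5 somatic gonad markers 2 were higher and 1 lower. Of 5 muscle markers 3 were higher and 0 lower, and of 5 hypodermis markers 2 were higher and 0 lower. The parts of cell make-up and of collecting some RNAi gonads whole in the linker histone values were not tested.

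Among Day 2 controls, library c was low for this family. There hil-4, hil-5, hil-2, hil-3 and his-24 stood at 0.542, 0.583, 0.608, 0.538 and 0.416 of the mean of libraries a and b. Coding genes under 1000 bases of exon had a median of 0.878 in the same ratio. All members are under 1000 bases, and without library c the deposited Day 2 calls against control also passed in limma voom, other than that of hil-3 in GFP-negative gonads given above. The gene hil-6, called in neither Day 2 comparison with control by the authors' deposited table, was called in both by limma voom, but not without Day 2 control c (adjusted p = 0.158 for GFP-positive and 0.126 for GFP-negative gonads), nor without Day 2 control a or library a or c of either RNAi group.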

How the data were processed

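The deposited table was used. The submitters' processing notes name TopHat2 and DESeq2 as the authors' tools; no source used here gives their versions, the build or the read counter. Per the file headers, each deposited signal value is an average of normalized read counts over 1 group, and the deposited log2 fold changes and p-values (BH-adjusted) cover 7 comparisons. Columns of 0 and 1 are the authors' gene categories, a deposited label with no unit. The deposited folds can differ in size from the ratio of the averages.

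Whole reads per library were worked out from each average, as few sets of whole numbers give it; this was decided on with the table in view. They gave back the deposited mean expression within a relative 1e-06 for 100 percent of 4084 to 7137 genes per comparison. limma 3.58.1 (voom, R 4.3.3) was fitted to these reads, with the authors' scaling, for genes that reached a mean of 1 normalized read in some group (23460 in the RNAi set, 15189 in the mutant set), for comparisons the table lacks (pgl-1(ct131) him-3(e1147) against glh-1(gk100), for which the deposited test had been planned, and those of stages) and as an alternative elsewhere. Both steps were tested on simulated data. Replicate numbers are unknown. For low genes counting error adds to the spread between libraries, and 3 reads were taken as the limit for 0. All 8 members were named; likeness took the 3 nearest genes for members averaging at least 100, and other lists their extremes among called genes. The members and lists were chosen with earlier results of these data known.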

Additional observations from a re-analysis of the deposited data

Results flagged for a closer look

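For 5 members the level at Day 2 differed between GFP-positive and GFP-negative RNAi gonads, which were told apart by the reporter. The test was the direct comparison of these groups in the authors' deposited table, which uses no control library. The log2 fold change of GFP-positive over GFP-negative gonads by the authors' deposited table was 2.27 for his-24, 1.57 for hil-2, 1.62 for hil-3, −0.93 for hil-5 and 3.58 for hil-7. For hil-2 the 2 log2 fold changes against control also differ in sign, at 1.25 in GFP-positive and −0.31 in GFP-negative gonads by the authors' deposited table, and the second was not called.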

How the results depend on the processing

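No called value (28) changed sign in any alternative run, and 9 lost their call in at least 1. At an adjusted p of 0.01, members called came to 0 in glh-1(gk100) and 1 in pgl-1(ct131) him-3(e1147). In limma voom they came to 0 at L4 and 3 in pgl-1(ct131) him-3(e1147); with no filter on low reads to 0 at L4, 3 in pgl-1(ct131) him-3(e1147) and 2 in glh-1(gk100); scaled to total reads (chosen after seeing the data) to 0 at L4 and 0 in glh-1(gk100); and without the lowest-depth Day 1 libraries to 3 for Day 1 against L4 control. Leaving out each library gave 0 at L4 throughout, 0 to 2 in glh-1(gk100), 1 to 4 in pgl-1(ct131) him-3(e1147), and 0 to 1 for the RNAi effect at Day 1 minus L4 and for both stage steps in controls. The 1 call for Day 2 against Day 1 control came without Day 2 control library c, and that for the RNAi effect without Day 1 control library c. Where this left 1 glh-1(gk100) library, it was assumed to vary like the other groups. The cause was not tested.

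Of 77 tested values not called, 24 changed sign in some alternative, none of them called there. Scaled to total reads, hil-2 in Day 2 GFP-negative gonads became 0.040, and his-24 and hil-4 in Day 1 against L4 RNAi 0.012 and 0.00459. For hil-4 in GFP-positive over GFP-negative gonads limma voom gave 0.11, and 0.10 with no filter. Without the lowest-depth Day 1 libraries, hil-3 at Day 1 became −0.18, hil-1 in Day 1 against L4 control −0.44, hil-6 and hil-7 in Day 2 against Day 1 control 0.50 and 0.50, hil-2 and hil-6 in Day 1 against L4 RNAi −0.036 and −0.26, and hil-7 in the RNAi effect at Day 2 GFP-negative minus Day 1 −0.084.

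Leaving out each library, RNAi against control ranged from −0.40 to 0.48 for his-24 at L4, −0.60 to 0.11 for hil-2 and −0.19 to 0.48 for hil-3 at Day 1, and −0.31 to 0.063 for hil-2 in Day 2 GFP-negative gonads. GFP-positive over GFP-negative ranged from −0.083 to 0.45 for hil-4. In glh-1(gk100) hil-3 ranged from −1.79 to 0.74, and between the mutants hil-4 from −0.61 to 0.16 and hil-6 from −0.32 to 0.79. Day 1 against L4 control ranged from −0.44 to 0.64 for hil-1 and −0.12 to 0.16 for hil-5. Day 2 against Day 1 control ranged from −0.38 to 0.69 for hil-1, −0.25 to 0.46 for hil-2, −0.022 to 0.36 for hil-5, −0.67 to 0.52 for hil-6 and −0.75 to 0.50 for hil-7. Day 1 against L4 RNAi ranged from −0.50 to 0.37 for his-24, −0.12 to 0.25 for hil-2, −0.37 to 0.18 for hil-4 and −0.25 to 0.78 for hil-6. Day 2 GFP-negative against Day 1 RNAi ranged from −0.10 to 0.93 for hil-6 and −0.43 to 0.55 for hil-7. The RNAi effect at Day 2 GFP-negative minus Day 1 ranged from −0.19 to 0.52 for hil-2, −0.047 to 1.18 for hil-6 and −0.36 to 0.89 for hil-7.

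Scaling to total reads moved the median log2 fold change of all genes by −0.21 in GFP-positive over GFP-negative gonads, 0.21 in glh-1(gk100) and 0.26 in pgl-1(ct131) him-3(e1147) gonads. edgeR with TMM, edgeR with DESeq2 size factors and DESeq2 were not run, since the table holds averages and no count column. No paired analysis was possible because the deposited columns are group averages that carry no replicate number.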
